A study of Mus musculus with 41 samples.

Results

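The 47 genes described here encode the proteins that license, unwind and copy chromosomal DNA in S phase. They are a list of symbols grouped by role, chosen with earlier results of these data known though by no threshold on a measured value, and each symbol matched 1 gene identifier. All 47 were among the 22438 genes with footprint counts and the 55385 genes with RNA estimates, and all 47 passed the low-count filter in every comparison. They comprise the 6 subunits of the MCM helicase, 3 loading factors, the 6 subunits of the origin recognition complex, GINS and Cdc45 (5 genes), 9 genes of the polymerases and primase, the PCNA clamp with the 5 subunits of its loader RFC, the 3 subunits of RPA, Fen1 and Lig1 of Okazaki fragment maturation, the 2 measured subunits of chromatin assembly factor 1, and 5 enzymes of nucleotide supply. Mcm10, a scaffold at the helicase, is grouped here with Cdc6 and Cdt1 as a loading factor.

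The study asked what happens to translation in mouse tissues and cells that lack Hbs1l or Pelo, which together release ribosomes stalled on mRNA, or Upf2, a core factor of nonsense-mediated mRNA decay. Ribosome-protected fragments (RPF, also called footprints, the pieces of mRNA shielded by a translating ribosome) came from 30 libraries in 10 groups of 3, and mRNA from 11 libraries. Embryos were Hbs1l-/- or wild type at E8.5 on the C57BL/6NJ strain, with several embryos pooled for each replicate. Cerebella were from C57BL/6J mice at P14, either Atoh-Cre;Hbs1l cKO or Atoh-Cre;Hbs1l +/+, 1 cerebellum a replicate. The cKO mice were Hbs1l fl/-, and Atoh-Cre acts in granule cell precursors, so that other cells of the cKO cerebellum kept 1 copy of the gene, whereas control mice had both. Mouse embryonic fibroblasts (MEFs) were primary C57BL/6 cells, each replicate grown from a single embryo. All of them, controls included, carried CAG-Cre ER and received tamoxifen, so that Cre induction was shared by control, Hbs1l cKO, Pelo cKO and Upf2 cKO cells. The induced cells are called Hbs1l-/-, Pelo-/- and Upf2-/- below. Each mutant MEF footprint group was sequenced in a batch with its own 3 controls, whereas 1 set of 3 control RNA libraries served 3 Hbs1l-/-, 2 Pelo-/- and 3 Upf2-/- RNA libraries. Before induction the Hbs1l MEFs were fl/- and the Pelo and Upf2 MEFs fl/fl. Control and mutant MEFs and the Atoh-Cre;Hbs1l cKO mice were all n-Tr20 B6J/B6J, homozygous for a tRNA mutation of the B6J strain.

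Replication starts where the origin recognition complex sits on DNA and, with Cdc6 and Cdt1, loads the MCM helicase as an inactive ring. Cdc45 and GINS turn that ring into the active helicase, polymerase α with its primase lays primers, polymerases δ and ε extend them on the PCNA clamp, and RPA covers single strands. Many of these genes are transcribed as cells enter S phase under E2F transcription factors. Their levels are commonly read as a sign of proliferation, which in the developing cerebellum includes that of granule cell precursors.

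Library size ranged from 2634480 to 7298812 footprint counts in embryos, from 10919139 to 22591768 in cerebella, from 5782990 to 25607974 in MEFs, and from 22713643 to 86425762 estimated counts in RNA. Values for single genes are counts-per-million values (CPM) of the library total after scaling by the trimmed mean of M-values. Hbs1l footprints were at 1.52 to 2.59 CPM in Hbs1l-/- MEFs against 32.7 to 39.5 in controls, and at 2.98, 2.77 and 9.07 in Hbs1l-/- embryos against 50.6 to 60. They remained at 12.8 to 15.7 CPM in Hbs1l cKO cerebella against 37.8 to 44.7. Pelo footprints were at 2.0 to 3.0 CPM in Pelo-/- MEFs against 31.9 to 38.5. Upf2 was higher, not lower, where it was labelled as removed. Its footprints were at 113 to 118 CPM in the libraries labelled Upf2-/- and at 48.8 to 58.1 in their controls. Its RNA was at 30.0 to 63.0 against 15.7 to 21.4. Gene-level counts include exons outside a deleted part, so that this does not check the label. The study reports that targets of nonsense-mediated decay and transcripts with retained introns accumulated in its Upf2-/- cells specifically. Every direction given for these libraries below is for libraries labelled Upf2-/-. Same-numbered control libraries of the 3 MEF footprint batches were nearly identical, with a chi-square of 1.1 to 1.19 per gene in 9 pairs, against 4.29 to 12.5 in the 18 pairs with different numbers. The 3 MEF footprint comparisons therefore share their controls, and their values are given side by side without any measure of likeness.

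Promoters are shown for Mcm3, Mcm5, Mcm6 and Mcm7, the helicase subunits whose window holds an E2F-type motif, and for the loading factor Cdc6, which holds one too, since every MCM gene and every loading factor rose in each MEF footprint comparison described further on. The windows of Mcm2 and Mcm10 hold no such motif, that of Cdt1 holds TTTGGCGC, these 3 are not printed, and Mcm4 had no entry. The windows run from 250 bases before to 50 bases after the gene start in RefSeq on GRCm38.p6, 40 of the 47 members had an entry with 48 windows among them, and each sequence is written 5′ to 3′ on the strand of its gene. Capitals mark exact matches, on either strand, to the E2F-type motifs TTTCCCGC, TTTGGCGC and TTTCGCGC, with overlapping matches run together. The windows are chr1:20820263-20820562 on the minus strand for Mcm3, chr8:75109259-75109558 on the plus strand for Mcm5, chr1:128359656-128359955 on the minus strand for Mcm6, chr5:138171834-138172133 on the minus strand for Mcm7 and chr11:98907901-98908200 on the plus strand for Cdc6.
Mcm3: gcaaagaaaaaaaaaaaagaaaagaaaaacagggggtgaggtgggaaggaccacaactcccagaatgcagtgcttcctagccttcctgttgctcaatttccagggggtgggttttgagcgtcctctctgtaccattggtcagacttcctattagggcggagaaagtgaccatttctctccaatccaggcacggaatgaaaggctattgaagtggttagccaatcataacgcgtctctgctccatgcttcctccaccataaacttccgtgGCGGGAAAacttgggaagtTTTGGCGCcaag
Mcm5: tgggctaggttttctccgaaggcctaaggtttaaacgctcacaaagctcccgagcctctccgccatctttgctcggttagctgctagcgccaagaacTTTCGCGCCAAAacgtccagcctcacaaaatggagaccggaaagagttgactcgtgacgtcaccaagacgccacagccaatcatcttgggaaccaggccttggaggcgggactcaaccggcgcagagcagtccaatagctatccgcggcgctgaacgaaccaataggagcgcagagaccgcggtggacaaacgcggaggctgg
Mcm6: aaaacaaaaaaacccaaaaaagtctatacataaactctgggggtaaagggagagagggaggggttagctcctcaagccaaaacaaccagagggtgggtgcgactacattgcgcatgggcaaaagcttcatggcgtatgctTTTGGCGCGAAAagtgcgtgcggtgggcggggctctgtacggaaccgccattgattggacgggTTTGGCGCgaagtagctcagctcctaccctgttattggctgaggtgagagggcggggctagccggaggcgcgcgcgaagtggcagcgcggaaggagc
Mcm7: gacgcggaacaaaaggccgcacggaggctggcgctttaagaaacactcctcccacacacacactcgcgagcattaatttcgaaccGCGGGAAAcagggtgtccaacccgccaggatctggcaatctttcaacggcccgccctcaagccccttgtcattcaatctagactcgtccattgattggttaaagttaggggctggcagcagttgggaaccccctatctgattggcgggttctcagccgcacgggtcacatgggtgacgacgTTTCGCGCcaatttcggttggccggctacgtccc
Cdc6: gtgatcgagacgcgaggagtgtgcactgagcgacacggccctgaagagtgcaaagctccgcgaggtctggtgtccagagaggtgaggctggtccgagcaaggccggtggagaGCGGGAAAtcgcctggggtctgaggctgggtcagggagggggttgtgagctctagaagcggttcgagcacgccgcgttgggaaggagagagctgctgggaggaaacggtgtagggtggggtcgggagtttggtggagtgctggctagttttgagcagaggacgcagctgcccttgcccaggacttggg

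At least 1 of these motifs was present in 15 of the 48 windows, each of another member, against 1.84% of all 32851 promoter windows. TTTCCCGC was found in 8 of the members' windows and in 1.07% of all windows, TTTGGCGC in 6 and in 0.514%, and TTTCGCGC in 6 and in 0.323%. In Mcm5 the matches begin 153 and 149 bases before the start and overlap, in Mcm6 the matches at 110 and 106 bases before the start overlap, and Cdc6 holds 1 match, 138 bases before the start. CCAAT, the box bound by NF-Y, was present in 26 of the members' 48 windows and in 37.4% of all windows. A match is a description of the letters and not of a factor bound there.

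Levels of the members differed between tissues before any gene was removed. All 47 members were higher in control embryos than in control cerebella (36.1% of the 13992 genes tested were called higher, edgeR quasi-likelihood test with Benjamini-Hochberg adjustment, threshold 0.05). Their median log2 difference was 3.46, an 11.0-fold higher level, against -0.21 over all genes tested. Orc1, the subunit of the origin recognition complex that varies with the cell cycle, was at 50, 48.7 and 46.0 CPM in control embryos and at 0.679, 0.337 and 0.185 CPM in control cerebella (131-fold, adjusted p = 1.36e-08). Mcm2 was at 399, 405 and 393 CPM against 14.9, 13.8 and 8.83 (32.1-fold), and Pcna at 289, 253 and 303 against 28.7, 29.5 and 33.3 (9.22-fold). The ranges were apart for each of these genes. The smallest difference was that of Orc4, another subunit of the same complex, at 76.1, 67.7 and 74.9 CPM against 53.9, 53.2 and 43.6 (1.45-fold, adjusted p = 0.00388). Tissue, age, strain, sequencing batch and the length of fragment selected (26 to 34 nt in cerebella, 15 to 34 nt in embryos) changed together here and cannot be told apart, nor can fewer dividing cells be told apart from less RNA per cell in any of these bulk samples.

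Control MEFs lay below control embryos for 44 of the 47 members (39.0% of 12616 genes were called lower and 38.6% higher), with a median log2 difference of -1.44 against -0.01 over all genes. Dut, which removes dUTP, was at 65.8, 61.3 and 69.8 CPM in control MEFs and at 452, 420 and 426 in control embryos, and fell by 2.72 on the log2 scale (adjusted p = 5.04e-15). Gins1 and Lig1 followed, lower by log2 differences of -2.49 (adjusted p = 1.31e-10) and -2.41 (adjusted p = 4.15e-13). Orc4 was the 1 member called higher in MEFs, at 119, 111 and 130 CPM against 67.6, 58.1 and 65.8 (1.89-fold, adjusted p = 2.19e-07). Rpa1, the large subunit of RPA, and Rrm1, the large subunit of ribonucleotide reductase, were not called, with log2 differences of 0.13 (adjusted p = 0.158) and 0.18 (adjusted p = 0.0723). Cell source, embryonic age, culture, strain, Cre with tamoxifen and sequencing batch changed together between these groups and cannot be told apart.

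Per kilobase of coding sequence, the order of the members also differed between tissues. In control embryos Dut had the highest footprint density, 840 ± 31.1 CPM per kb (SD, n = 3), followed by Rrm2 at 497 ± 18.4, Pcna at 377 ± 40.4 and Mcm5 at 336 ± 20. Pcna and Mcm5 overlapped within their SDs, whereas Dut and Rrm2 stood apart from each other and from Pcna. Orc1 was lowest, at 20 ± 0.894, below Pola1 at 24.1 ± 4.80, which overlapped it within the SD. In control cerebella Dut was again highest, at 108 ± 10.5, then Rpa3 at 62.3 ± 16.3 and Rpa1 at 51.6 ± 12.0, which overlapped, and Orc1 was lowest at 0.156 ± 0.0984. In control MEFs of the Hbs1l batch the 2 subunits of ribonucleotide reductase led, Rrm2 at 263 ± 3.62 and Rrm1 at 207 ± 21.2. Gins3, Mcm10 and Orc1 closed the MEF order at 7.44 ± 1.48, 7.14 ± 0.880 and 5.88 ± 1.24, overlapping within their SDs. In MEF RNA Rrm2 was highest, at 124 ± 8.51 TPM (the transcripts-per-million scale), and Gins3 lowest, at 1.90 ± 0.166 TPM, in the 3 controls.

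In E8.5 embryos that lack Hbs1l, no member passed the threshold in either direction (0.92% of 11416 genes were called higher and 0.955% lower). The log2 changes of the members ranged from -0.49 to 0.63 with a median of 0.00, against 0.01 over all genes tested, and 24 members were above 0 and 23 below. At an unadjusted p under 0.05 edgeR gave 5 members higher and 5 lower (9.37% and 9.21% of all genes), and DESeq2 called 3 members, Orc2, Orc5 and Rfc1 (3.78% of genes in either direction). Pcna, the sliding clamp, was at 276, 326 and 288 CPM in Hbs1l-/- embryos and 306, 259 and 320 in wild type (log2 change 0.01, adjusted p = 0.977). Mcm2 was at 510, 553 and 373 CPM against 422, 415 and 415 (0.20, adjusted p = 0.51). For both genes the groups overlapped.

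The 6 subunits of the origin recognition complex had a median log2 change of 0.51 (range 0.25 to 0.63) in embryos, against -0.00 for the 6 MCM subunits and -0.23 for the nucleotide enzymes, none of them called. Orc5 had the lowest adjusted p of the members, 0.0729. Its footprints were at 116, 152 and 171 CPM in Hbs1l-/- embryos and 96.0, 88.5 and 98.1 in wild type, so the groups were apart. Orc2 was at 86.0, 113 and 114 CPM against 69.9, 69.7 and 66.9 (adjusted p = 0.0817), and Rfc1, the large subunit of the clamp loader, at 119, 178 and 119 against 93.2, 95.1 and 80.4 (adjusted p = 0.0931). Cdt1, a loading factor, lay on the other side, at 215, 132 and 117 CPM against 239, 206 and 214 (log2 change -0.49, adjusted p = 0.206). Mutant replicate 1 was the library nearest to the controls for Orc5, Orc2 and Cdt1. Without that replicate 10 of the 47 members were called, 7 higher (among them Orc2, Orc3, Orc4, Orc5 and Orc6) and 3 lower (Cdt1, Fen1 and Gins2), but so were 20.3% of all 11376 genes tested, a share near that of the members.

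Markers of several cell types differed between these embryos. The summed level of 8 primitive erythroid markers was 3210 to 8760 CPM in Hbs1l-/- embryos and 13200 to 17200 in wild type, and 3 of the 8 fell. All 8 cardiomyocyte markers fell, summing to 777 to 1150 CPM against 1880 to 2140. Of the 9 trophoblast markers, 4 of the 5 tested rose, summing to 205 to 1130 CPM against 107 to 129, with Psg17 and Gcm1 at 0 in wild type. The 8 fibroblast markers summed to 654 to 826 CPM against 907 to 1000, with Col3a1 and Col1a1 called lower, and the 5 endothelial markers to 517 to 685 against 422 to 448, with Pecam1 called higher. The 15 mitosis markers summed to 3620 to 4830 CPM against 3730 to 4050, with none called. The part of these differences in the members' values was not tested.

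In the cerebellum with Hbs1l removed from granule cell precursors, 46 of the 47 members lay above the controls and none was called (0.0554% of 14430 genes were called higher and 0.00693% lower). Their median log2 change was 0.54, from -0.17 for Rpa1 to 1.69 for Tk1, against 0.00 over all genes tested. edgeR gave 27 members higher and 0 lower at an unadjusted p under 0.05 (7.14% and 6.28% of all genes), and DESeq2 called 17, all higher (3.35% of genes in either direction). In 29 members the 3 cKO libraries were all above the 3 controls, and in none all below, against 9.38% and 8.91% of all genes. edgeR called 9 genes in all.

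Thymidine kinase 1 (Tk1), the salvage enzyme of S phase, was at 4.81, 3.46 and 4.19 CPM in Hbs1l cKO cerebella and at 1.33, 1.27 and 1.27 in controls, a log2 change of 1.69 (SE 0.24, adjusted p = 0.0705). Rrm2, the small subunit of ribonucleotide reductase, was at 34.1, 22.8 and 26.9 CPM against 12.9, 13.6 and 13.8 (adjusted p = 0.0823). Tyms, which makes dTMP, was at 14.1, 8.20 and 12.5 CPM against 5.49, 4.62 and 5.18 (adjusted p = 0.105). These 3 enzymes were higher in every cKO library than in any control, while Dut and Rrm1 of the same group overlapped with their controls. Cdc6, which helps load the helicase, was at 3.42, 2.19 and 2.14 CPM against 1.08, 0.991 and 0.999 (adjusted p = 0.126). Mcm2 was at 34.2, 19.7 and 21.7 CPM against 14.6, 13.5 and 8.68 (log2 change 1.05, adjusted p = 0.152), without overlap. Pcna overlapped, at 42.7, 26.4 and 42.3 CPM against 28.1, 28.9 and 32.7 (0.32, adjusted p = 0.51).

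By role, the median log2 change in the cerebellum was 1.34 for the loading factors, 1.06 for nucleotide supply, 1.05 for chromatin assembly factor 1, 1.01 for MCM, 0.74 for GINS and Cdc45, 0.52 for the polymerases and primase, 0.42 for the clamp and its loader, 0.37 for Okazaki fragment maturation, 0.14 for RPA and 0.10 for the origin recognition complex. Several members lay near 0: Rpa1 was at 101, 89.7 and 74.6 CPM against 112, 114 and 72.8, and Orc4 at 53.1, 44.4 and 51.2 against 52.8, 52.2 and 42.9. The second cKO cerebellum had the lowest median over the members, 0.134 above their mean over the 6 libraries on the log2 scale, against 0.502 and 0.267 for the other cKO cerebella and -0.288, -0.192 and -0.347 for the controls. Without it edgeR called 4 members (Rrm2, Chaf1b, Tk1 and Tyms) and 0.602% of all genes, and without control replicate 3 it called 9 members and 3.84% of all genes.

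**Figure D1:**
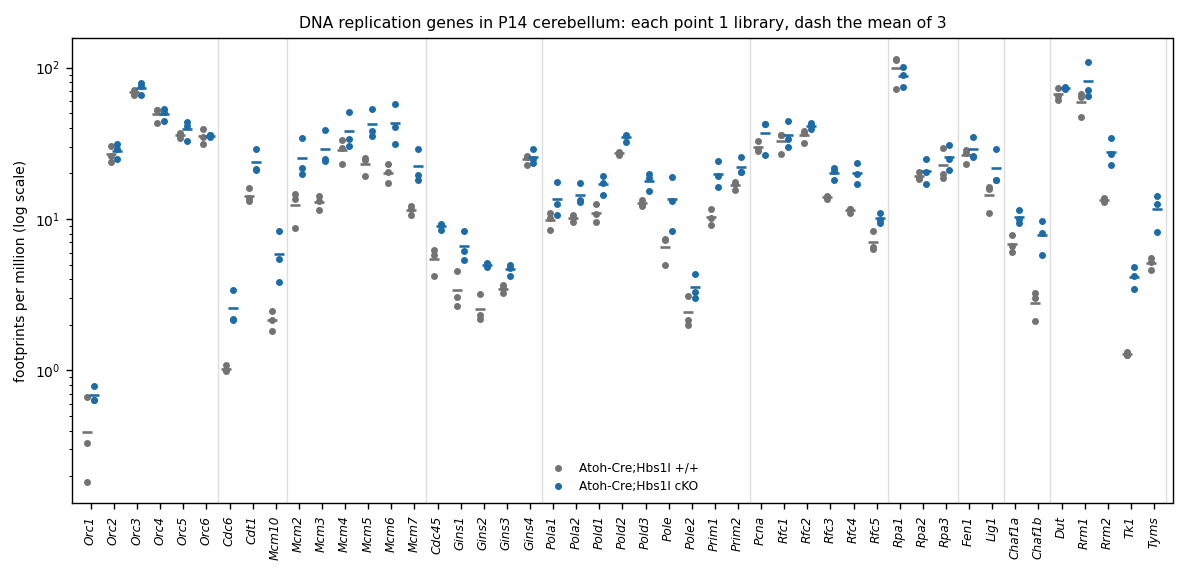
CPM (log scale) of footprints on each of the 47 members in P14 cerebellum, with 1 point a library and a dash for the mean of 3, in gray for Atoh-Cre;Hbs1l +/+ and blue for Atoh-Cre;Hbs1l cKO, and lines between groups of the same role. In 29 members all 3 cKO points lie above all 3 controls, as for Tk1, Cdc6 and Mcm2, whereas Orc4 and Rpa1 overlap.

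Markers of the dividing precursor moved in the same libraries. The 8 granule cell progenitor markers summed to 417 to 551 CPM in cKO cerebella and 189 to 233 in controls, their median log2 change was 1.12, and 2 of them, Sfrp1 and Insm1, rose. The 15 mitosis markers summed to 209 to 411 CPM against 107 to 131 with a median of 1.31 and none called. Mature granule neuron markers summed to 3600 to 4850 CPM against 4130 to 6640 (median -0.2), and Purkinje cell markers to 4600 to 6140 against 6380 to 12300 (median -0.92). Glial markers summed to 9250 to 11100 against 11100 to 12200, although their median log2 change was 0.2. No marker was called in these neuron and glial lists. The part of all these markers in the members' values was not tested.

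The effect of Hbs1l loss was then compared between embryo and cerebellum by the interaction of tissue and genotype. Of the members, 5 had a lower effect in the embryo and none a higher one (0.465% and 0.267% of 14624 genes), and the median difference over the members was -0.57, against -0.01 over all genes. Tk1 differed most, by -1.93 (SE 0.27, adjusted p = 0.00786), followed by Chaf1b, which deposits histones behind the fork, by -1.48 (SE 0.27, adjusted p = 0.0251), and Tyms by -1.44 (SE 0.28, adjusted p = 0.029). Gins2 and Rrm2 were the other 2 members called. The Tk1 footprints that enter this difference were 53.8, 43.0 and 46.8 CPM in Hbs1l-/- embryos and 62.8, 53.5 and 53.1 in wild type, overlapping. The cerebellar groups given above were apart, but low, with every library under 5 CPM. Mcm2 (-0.85, adjusted p = 0.207) and Pcna (-0.31, adjusted p = 0.575) were not called. The Hbs1l level that remained was higher in the cKO cerebella than in the mutant embryos, as given above, and its part in this difference was not tested. Loss in the whole embryo was set against loss in granule cell precursors. Tissue, age, strain, batch and fragment length changed with it and cannot be told apart. Leaving out 1 library left Tk1 as the 1 member called for 9 of the 12 libraries, namely embryo mutants 2 and 3, embryo controls 1, 2 and 3, cKO cerebella 1 and 3, and cerebellar controls 1 and 2. Those fits called 0.0532% to 0.292% of all genes. Without embryo mutant 1 the count was 15 (3 higher, 12 lower, with 7.47% of all genes called), without cKO cerebellum 2 it was 10 (1.14%), and without cerebellar control 3 it was 7 (1.75%).

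In MEFs, footprints on the replication genes rose with each mutation. Of the 47 members, 37 rose and none fell in Hbs1l-/- MEFs (17.4% of 11984 genes were called higher and 16.7% lower), 39 rose and 1 fell in Pelo-/- MEFs (22.9% and 21.2% of 12486), and 40 rose and 1 fell in the libraries labelled Upf2-/- (22.3% and 21.1% of 12166). The median log2 change over the members was 0.52, 0.54 and 0.56, against -0.01, 0.00 and 0.00 over all genes tested, all by the edgeR quasi-likelihood test. Leaving out any 1 library kept these counts between 34 and 41.

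**Figure D2:**
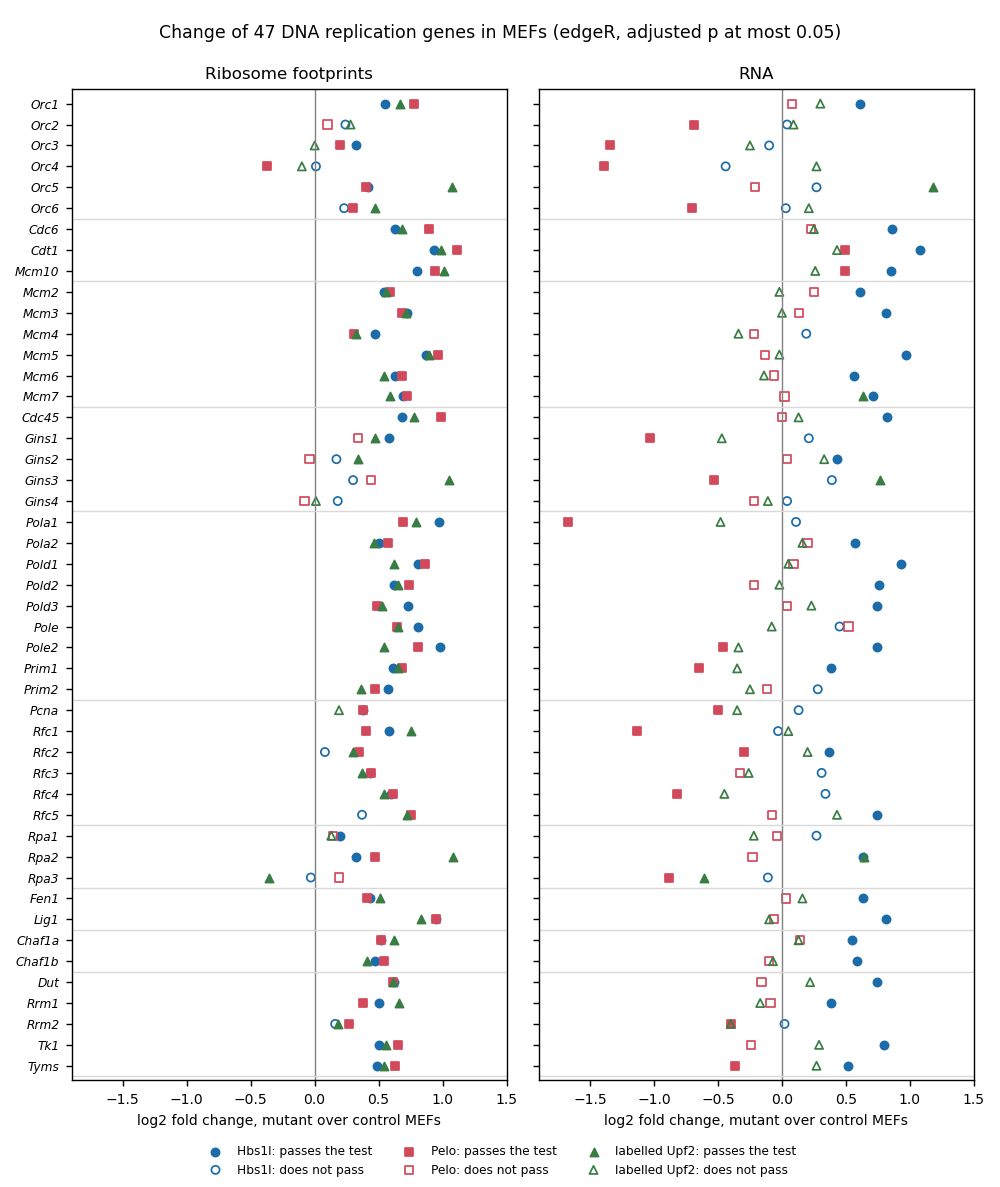
Log2 fold change of mutant over control MEFs for each member in footprints (left) and RNA (right), as circles for Hbs1l-/-, squares for Pelo-/- and triangles for libraries labelled Upf2-/-, filled where the edgeR adjusted p was at most 0.05, with lines between groups of the same role. Footprints lie to the right of 0 for most members in each mutant, while in RNA Hbs1l-/- values centre on 0.52, Pelo-/- on -0.16 and labelled Upf2-/- on 0.05.

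All 6 MCM subunits rose in each mutant, with median log2 changes of 0.66, 0.68 and 0.58. Mcm2 was at 211, 200 and 196 CPM in Hbs1l-/- MEFs and 148, 138 and 130 in controls (log2 change 0.54, SE 0.07, adjusted p = 5.77e-05). It was at 200, 213 and 225 CPM in Pelo-/- MEFs against 147, 137 and 140 (0.59, adjusted p = 8.52e-05), and at 200, 205 and 210 in libraries labelled Upf2-/- against 138, 144 and 135 (0.56, adjusted p = 3.38e-05). In no mutant did Mcm2 overlap with its controls. Mcm5 rose most of the 6, at 219, 241 and 194 CPM against 117, 112 and 127 in Hbs1l-/- MEFs (0.87, adjusted p = 6.06e-06), at 227, 221 and 260 against 126, 112 and 128 in Pelo-/- MEFs (0.96, adjusted p = 1.52e-05), and at 223, 228 and 216 against 118, 110 and 132 in libraries labelled Upf2-/- (0.89, adjusted p = 7.69e-06). Mcm4 rose least, by log2 changes of 0.47, 0.31 and 0.32.

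The 3 loading factors rose in each mutant too, with medians of 0.80, 0.94 and 0.99. Cdt1 was at 61.5, 71.2 and 57.3 CPM in Hbs1l-/- MEFs against 33.4, 33.8 and 32.0 (0.93, SE 0.09, adjusted p = 8.74e-06). In Pelo-/- MEFs it was at 63.5, 75.0 and 75.4 CPM against 37.1, 31.3 and 30.4, the largest rise among the members there (1.11, SE 0.10, adjusted p = 2.04e-05). In libraries labelled Upf2-/- it was at 68.7, 66.3 and 73.5 CPM against 37.2, 35.6 and 32.3 (0.99, adjusted p = 6.77e-06). Every mutant library of Cdt1 was more than 20 CPM above every control. Cdc6 rose by 0.63, 0.89 and 0.68, and Mcm10, a scaffold that links the helicase to polymerase α, by 0.80, 0.94 and 1.01.

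All 9 genes of the polymerases and primase rose in each mutant, with medians of 0.73, 0.68 and 0.62. Pole2, an accessory subunit of polymerase ε, had the largest rise in Hbs1l-/- MEFs, at 24.2, 25.1 and 25.7 CPM against 12.6, 10.5 and 15.1 (0.98, SE 0.13, adjusted p = 9.46e-05). Pola1, the catalytic subunit of polymerase α, followed at 93.1, 88.8 and 96.6 CPM against 46.9, 41.5 and 54.1 (0.97, SE 0.09, adjusted p = 6.69e-06). It was at 76.5, 70.3 and 87.7 CPM against 48.0, 39.7 and 58.2 in Pelo-/- MEFs and at 90.1, 88.4 and 81.9 against 49.0, 44.3 and 57.2 in libraries labelled Upf2-/-. None of these groups overlapped. DNA ligase Lig1, which seals Okazaki fragments, rose by 0.95 in Hbs1l-/- MEFs (77.8, 70.1 and 62.8 CPM against 36.3, 37.7 and 35.5, adjusted p = 7.07e-06), by 0.95 in Pelo-/- MEFs and by 0.83 in libraries labelled Upf2-/-.

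The origin recognition complex did not move as a whole. Of its 6 subunits 3, 4 and 3 rose, in the order Hbs1l, Pelo and labelled Upf2, and 1 fell in Pelo-/- MEFs. Orc1 rose in each, by 0.55, 0.78 and 0.67. Orc4 was at 96.8, 92.8 and 114 CPM in Hbs1l-/- MEFs against 99.5, 92.8 and 109, with no difference called (adjusted p = 0.918). In Pelo-/- MEFs it was at 79.3, 80.9 and 72.7 CPM against 103, 88.5 and 111, the 1 member that fell there (-0.37, adjusted p = 0.00667). Orc5 was at 48.6, 46.3 and 37.4 CPM in libraries labelled Upf2-/- against 19.5, 19.9 and 23.5 (1.07, SE 0.12, adjusted p = 3.65e-05), and rose by 0.42 in Hbs1l-/- and 0.40 in Pelo-/- MEFs. The latter call was lost without Pelo replicate 1 and without control replicates 1 or 2. Orc3 was at 65.3, 68.4 and 68.3 CPM in Pelo-/- MEFs against 58.0, 56.1 and 61.5 (0.20, SE 0.07, adjusted p = 0.0354), apart from its controls, but was no longer called with DESeq2, with the controls summed over batches, or in 5 of the 6 fits that left out 1 library, all but that without control replicate 3. The call of Orc6 there was lost without Pelo replicate 2 and without control replicates 1 or 2, and that of Orc3 in Hbs1l-/- MEFs without control replicate 1. Orc2 passed the threshold in none of the 3 comparisons, at adjusted p of 0.229, 0.376 and 0.0623.

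GINS and Cdc45, the partners that switch the helicase on, were also divided, with 2, 1 and 4 of 5 called higher. Cdc45 rose in each mutant and reached 38.0, 35.6 and 40.1 CPM in Pelo-/- MEFs against 20.8, 17.1 and 19.7 (0.99, SE 0.10, adjusted p = 3.68e-05). Gins4 was called in none, with log2 changes of 0.18, -0.08 and 0.01. Gins3 was at 10.5, 8.95 and 8.68 CPM in libraries labelled Upf2-/- against 4.11, 5.57 and 3.75 (1.05, SE 0.19, adjusted p = 0.000999). In the other two mutants Gins3 was not called.

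RPA, the single-strand binding trimer, was split within itself. Rpa2 was at 65.3, 60.1 and 55.8 CPM in libraries labelled Upf2-/- against 29.7, 26.2 and 29.8, the largest rise there (1.08, SE 0.09, adjusted p = 6.54e-06), and rose by 0.32 and 0.47 in Hbs1l-/- and Pelo-/- MEFs, the former lost without Hbs1l replicate 1 or control replicate 1. Rpa3, the smallest subunit, was the 1 member that fell in libraries labelled Upf2-/-, at 17.8, 20.9 and 18.9 CPM against 24.1, 23.0 and 27.1 (-0.36, adjusted p = 0.0209), a call lost without labelled Upf2 replicates 1 or 3, without control replicate 3, and with the controls summed over batches. Rpa3 was not called in Hbs1l-/- (-0.03) or Pelo-/- MEFs (0.19). Rpa1 was called higher in Hbs1l-/- MEFs alone (0.2). That call was lost without Hbs1l replicate 1 or control replicates 1 or 2, with DESeq2 and with a replicate block.

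Of the clamp and its loader 4, 6 and 5 of 6 genes rose. Pcna was at 78.5, 75.4 and 71.0 CPM in Hbs1l-/- MEFs against 56.3, 51.8 and 64.6 (0.38, SE 0.09, adjusted p = 0.00484) and at 77.0, 68.1 and 78.0 in Pelo-/- MEFs against 57.1, 51.0 and 63.5 (0.38, adjusted p = 0.00798). In libraries labelled Upf2-/- it was at 66.9, 66.8 and 79.5 CPM against 61.3, 54.5 and 70.8, overlapping (0.19, adjusted p = 0.159). Among the nucleotide enzymes 4, 5 and 5 of 5 rose, although the call of Rrm2 in libraries labelled Upf2-/- was lost in 5 of the 6 fits that left out 1 library, as was that of Gins1 there. Rrm1 reached 745, 701 and 711 CPM in Hbs1l-/- MEFs against 499, 461 and 563 (0.50, adjusted p = 0.000164), whereas its partner Rrm2 was at 420.0, 341 and 342 against 325, 334 and 327 and was not called (0.16, adjusted p = 0.126). Both subunits of chromatin assembly factor 1 rose in each mutant, Chaf1a by 0.52, 0.52 and 0.62.

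The differences between these effects were tested as interactions of batch and genotype. Because the control sets of the batches are nearly identical, each such test counts 6 controls where 3 are distinct, and its p-values rest on more controls than were independent. The mutants were also compared directly, which leaves differences between their batches in the values. Control values do not enter that difference itself. The controls summed over batches were still in the fit, for its filter, scaling and estimate of spread. Between Pelo-/- and Hbs1l-/- MEFs no member was called (3.45% of 12526 genes higher and 2.1% lower), with edgeR giving 3 higher and 1 lower at an unadjusted p under 0.05 (10.3% and 8.96% of all genes) and DESeq2 calling 0 (6.85% in either direction). Orc4 had a log2 difference of -0.38 there (adjusted p = 0.125), and was the 1 member called, lower in Pelo-/- MEFs, in the direct comparison (18.1% of genes in either direction). Between the libraries labelled Upf2-/- and Hbs1l-/- MEFs, 2 members had a larger effect in the former (2.88% of 12334 genes, and 2.05% lower), Rpa2 by 0.76 (SE 0.12, adjusted p = 0.00158) and Orc5 by 0.65 (SE 0.15, adjusted p = 0.0201). The direct comparison called 5 members, Rpa2, Orc5, Gins3 and Orc6 higher and Orc3 lower (16.7% of genes). In the interaction Rpa2 alone was left without either of labelled Upf2 replicates 1 and 2, its control 1, Hbs1l replicate 1 or its control 1. With the replicate number as a block, 1 member was called in that interaction. Between Pelo-/- MEFs and the libraries labelled Upf2-/-, 1 member had a larger and 2 a smaller effect in Pelo-/- MEFs (6.82% and 6.18% of 12675 genes). Rpa3 differed by 0.55 (SE 0.15, adjusted p = 0.0257), Orc5 by -0.67 (SE 0.18, adjusted p = 0.0236) and Rpa2 by -0.61 (SE 0.13, adjusted p = 0.00629). Leaving out 1 library moved that count between 1 and 4, with Rpa2 alone left without labelled Upf2 replicate 1. The direct comparison called 7, Rpa3 higher and Orc4, Rpa2, Orc5, Rfc1, Rrm1 and Gins3 lower in Pelo-/- MEFs (28.8% of genes). Mcm2 and Pcna were called in none of these differences.

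RNA of each MEF mutant was compared with the same 3 control libraries. In Hbs1l-/- MEFs 28 members rose and none fell (12.7% of 15318 genes were called higher and 10.4% lower), with a median log2 change of 0.52 against -0.01 over all genes. Cdt1 led, at 63.1, 53.8 and 58.8 CPM against 26.4, 30.2 and 26.7 (1.08, SE 0.10, adjusted p = 0.000677), then Mcm5 at 233, 217 and 232 against 110.0, 108 and 129 (0.97, adjusted p = 0.000789) and Pold1, the catalytic subunit of polymerase δ, at 103, 85.0 and 96.9 against 44.8, 48.1 and 56.4 (0.93, adjusted p = 0.0015). Each of these had all mutant libraries above all controls. Mcm2 was at 184, 156 and 159 CPM against 97.6, 106 and 123 (0.61, adjusted p = 0.00656), and Pcna overlapped at 95.3, 117 and 121 against 104, 94.1 and 107 (0.13, adjusted p = 0.426). Of the members that rose in Hbs1l-/- footprints, 25 of 37 also rose in RNA, which is 25 of the 28 that rose in RNA, and 48.1% of all genes that rose in these footprints and were tested in RNA rose there too. Whether footprints and RNA came from the same cultures was not stated, and the 2 assays share no library.

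In Pelo-/- RNA 2 members rose and 16 fell (15.5% and 16.6% of 14705 genes), with a median of -0.16 against -0.01 over all genes, resting on 2 mutant libraries. Pola1 was at 5.38 and 4.38 CPM against 12.3, 18.5 and 15.8 (-1.67, SE 0.20, adjusted p = 0.00203), Orc4 at 12.4 and 10.8 against 33.1, 30.2 and 28.4 (-1.39, adjusted p = 0.000843), and Orc3 at 12.0 and 9.14 against 25.6, 27.5 and 27.4 (-1.34, adjusted p = 0.00127). The 2 that rose belong to the group of loading factors. They were Cdt1 at 39.8 and 38.2 CPM against 25.9, 30.7 and 26.6 (0.49, adjusted p = 0.0126) and Mcm10 at 17.6 and 20 against 11.2, 14.1 and 14.6 (0.49, adjusted p = 0.0349). Pcna fell, at 70.5 and 73.3 CPM against 102, 95.7 and 107 (-0.50, adjusted p = 0.00499), and Mcm2 was not called at 129 and 130.0 against 95.8, 108 and 123 (0.25, adjusted p = 0.122). By role, 4 of 6 origin recognition subunits and 4 of 6 clamp and loader genes fell, and no MCM subunit did. The call of Rfc2 was lost without control replicates 1 or 3 and with a replicate block. On the TPM scale with limma, Rfc2, Rfc4, Pcna and Orc2 were no longer called, while Rfc1, Orc3, Orc4 and Orc6 were. Without Pelo replicate 1 the count of members called was 8, and without replicate 2 it was 10, all of them lower, while calls over all genes fell to 11.4% and 9.71%. Cdt1, Mcm10 and Pcna were called in neither of these fits. With 1 Pelo library left the spread in these fits came from the 3 controls alone, and the lone library was assumed to vary as they did.

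In the RNA libraries labelled Upf2-/- 4 members rose and 1 fell (13.2% and 6.76% of 15983 genes), with a median of 0.05 against -0.02 over all genes. Orc5 was at 24.7, 24.7 and 24.2 CPM against 11.4, 10.5 and 10.5 (1.18, SE 0.12, adjusted p = 9.92e-05), Gins3 at 5.93, 8.04 and 6.17 against 4.14, 3.49 and 4.16 (0.77, adjusted p = 0.013), Rpa2 at 31.8, 41.0 and 34.7 against 24.5, 19.9 and 24.8 (0.64, adjusted p = 0.0116) and Mcm7 at 182, 207 and 190.0 against 111, 122 and 139 (0.63, adjusted p = 0.00354). Rpa3 fell, at 9.12, 8.40 and 6.70 CPM against 13.3, 10.9 and 12.6 (-0.61, adjusted p = 0.0217). All 5 were apart from their controls and also called, in the same direction, in the footprints of libraries labelled Upf2-/-. The 4 that rose make up 4 of the 40 members that rose in those footprints, against 29.3% of all genes that rose there and were tested in RNA, and 4 of the 4 that rose in RNA, and Rpa3 was the 1 member that fell in each assay. Mcm2 (-0.02, adjusted p = 0.916) and Pcna (-0.35, adjusted p = 0.073) were not called. The count of members called fell from 5 to 3 without labelled Upf2 replicate 2, and to 3 without control replicate 2, with 12.8% and 10.6% of all genes called. Orc5 and Mcm7 were called in both of these fits, Rpa2 and Gins3 in neither, and Rrm2, called lower, was a new call in the former. Rpa3 lost its call in RNA without labelled Upf2 replicates 2 or 3 or without control replicates 1 or 3, and on the TPM scale with limma Orc5 and Mcm7 alone were called.

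**Figure D3:**
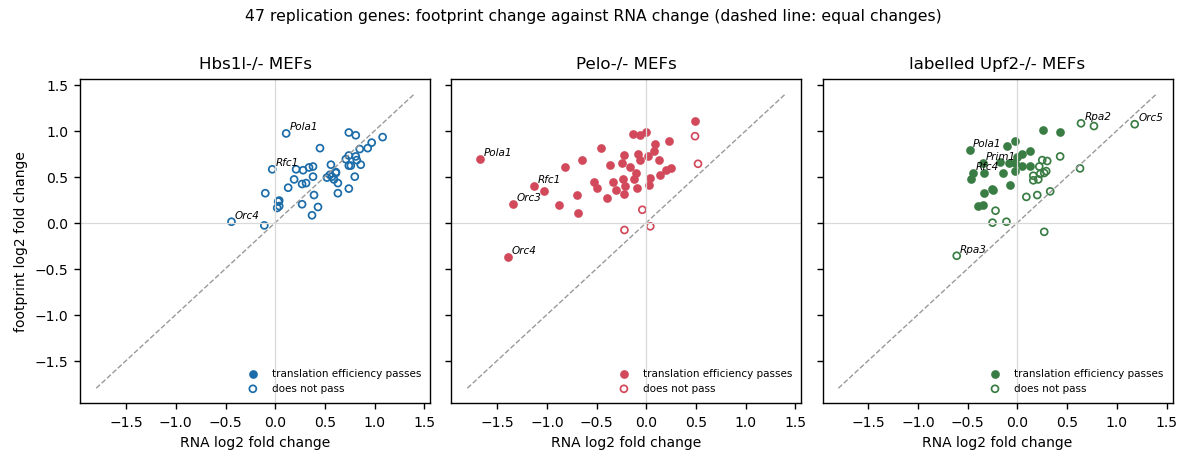
Footprint log2 fold change against RNA log2 fold change of the 47 members in each MEF mutant, filled where translational efficiency passed the edgeR threshold, with a dashed line where both changes are equal. No point is filled in Hbs1l-/- MEFs, 42 are filled above the line in Pelo-/- MEFs, and 25 in libraries labelled Upf2-/-.

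**Figure D4:**
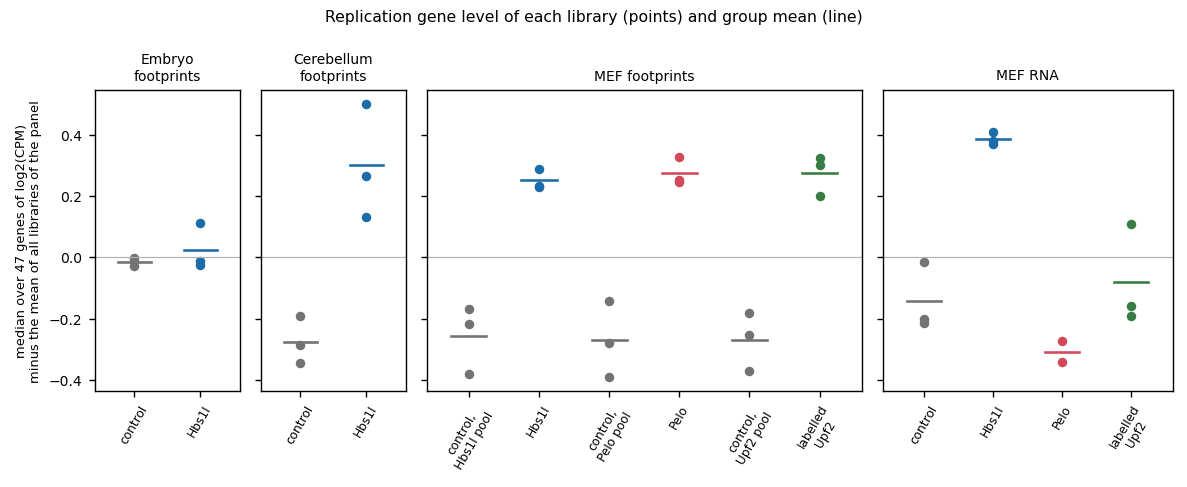
Median over the 47 members of each library's log2(CPM), relative to the mean of all libraries in its panel, with 1 point a library and a line for the group mean, where a pool is a sequencing batch. Mutant and control libraries overlap in the embryo, are apart in cerebellum and MEF footprints, and in MEF RNA stand apart for Hbs1l-/- (0.372 to 0.41) and Pelo-/- (-0.342 and -0.275) from the controls (-0.215 to -0.0142).

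Translational efficiency, the change of footprints relative to the change of RNA, was tested as an interaction of assay and genotype. In Hbs1l-/- MEFs no member was called (0.0168% of 11907 genes in each direction), the median was 0.01 against -0.02 over all genes, edgeR gave 4 members higher and 0 lower at an unadjusted p under 0.05 (8.63% and 8.71% of all genes), and DESeq2 called 2, Pola1 and Rfc1 (2.81% of genes in either direction). Pola1 had a log2 difference of 0.87 (adjusted p = 0.14) and Rfc1 of 0.62 (adjusted p = 0.133), Mcm2 of -0.05 and Pcna of 0.27 (adjusted p = 0.359).

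In Pelo-/- MEFs translational efficiency rose for 42 members and fell for none (24.3% and 20.4% of 12143 genes), with a median of 0.75 against 0.04 over all genes. The largest differences were those of Pola1 (2.37, SE 0.25, adjusted p = 1.34e-05), Orc3 (1.56, SE 0.14, adjusted p = 4.15e-06) and Rfc1 (1.56, SE 0.21, adjusted p = 9.28e-05), whose RNA fell and whose footprints rose, with the limits given above for Orc3 in footprints. In all, 11 members rose in Pelo-/- footprints and fell in Pelo-/- RNA: Orc3, Orc6, Pola1, Prim1, Pole2, Rfc1, Rfc2, Rfc4, Pcna, Rrm2 and Tyms. That is 11 of the 39 that rose in footprints, against 14.7% of all genes that rose there and were tested in RNA. Without Pelo RNA replicate 1 the count was 5 (Orc3, Orc6, Pola1, Rfc1 and Rfc4), without replicate 2 it was 6, these and Prim1, with the replicate block in RNA it was 7, and on the TPM scale with limma 4. Leaving out 1 footprint library gave 9 to 11. The share of all genes was taken for the main setting only, so these alternative counts have none beside them. A further 26 rose in footprints with no change called in RNA (66% of all such genes), among them Mcm2, whose efficiency rose by 0.36 (adjusted p = 0.0375), and that of Pcna rose by 0.90 (adjusted p = 0.000162). All 6 origin recognition subunits and all 6 MCM subunits were among the 42. The call of Mcm2 was lost with a replicate block, with no low-count filter, and in 8 of the 11 fits that left out 1 library, the exceptions being footprint replicate 1 and RNA controls 1 and 2, and that of Orc5 without Pelo RNA replicate 1. Pold3 and Pola2 lost their calls in 8 and 6 of the 11.

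In the libraries labelled Upf2-/- translational efficiency rose for 25 members and fell for none (8.47% and 11.8% of 12054 genes), with a median of 0.47 against -0.03. Pola1 rose by 1.25 (SE 0.26, adjusted p = 0.00463), Prim1, the catalytic subunit of primase, by 0.98 (adjusted p = 0.017), Rfc4 by 0.97 (adjusted p = 0.00427), Mcm2 by 0.56 (adjusted p = 0.0131) and Pcna by 0.52 (adjusted p = 0.0414). The 4 members whose RNA rose in these libraries were not called, with differences of -0.13 for Orc5, -0.06 for Mcm7, 0.27 for Gins3 and 0.43 for Rpa2. No origin recognition subunit was called, against 5 of 6 MCM subunits and 7 of 9 genes of the polymerases and primase. The count was 15 without footprint replicate 1, 13 without footprint replicate 2, 14 without footprint control 2 and 14 without RNA control 3, with 12.5% to 13.7% of all genes called in those fits. The 13 called in every fit that left out 1 library included Pola1, Prim1, Rfc4 and Mcm2. Pcna lost its call in 8 of the 12, namely without footprint replicates 1, 2 or 3, footprint controls 1 or 2, RNA replicate 3, or RNA controls 1 or 3. Mcm10 and Gins1 also lost theirs in 8, Chaf1b in 9 and Cdt1 in 10. Among the polymerases and primase, Pole lost its call in 8, Pold1 in 5 and Pold2 in 3. Without footprint replicate 2 the calls left in that role were Pola1, Pole2, Prim1 and Prim2. The same 3 RNA controls entered all 3 tests of efficiency.

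Transcript estimates were examined in the libraries labelled Upf2-/-, since nonsense-mediated decay acts on single isoforms. Of 280 annotated transcripts of the members, 117 had at least 1 TPM in some library and a control mean of at least 0.5 TPM. Of these, 13 were higher in every library labelled Upf2-/- than in every control and 9 lower, against 16.4% and 11.2% of 29301 transcripts of all genes, so that neither share was above the background. The isoforms named next were chosen after their values were seen. Mcm7-204, a protein-coding model of 829 bases, was at 28.7, 26.4 and 23.0 TPM against 1.41, 3.89 and 3.55 in controls, an 8.82-fold difference of means. The main isoform Mcm7-201 was at 56.8, 70.4 and 54.2 TPM against 34.2, 43.0 and 49.5 (1.43-fold). Orc5-201, its main isoform, was at 14.6, 15.1 and 12.1 TPM against 5.89, 6.50 and 6.52 (2.21-fold). Among models annotated as targets of nonsense-mediated decay, Orc6-204 was at 3.56, 3.39 and 2.32 TPM against 1.59, 0.62 and 0.60 (3.30-fold) Tyms-207 at 15.7, 22.4 and 18.6 against 9.59, 9.01 and 8.97 (2.06-fold), and Tyms-204 at 1.65, 1.83 and 1.35 against 0.65, 0.90 and 0.88 (1.99-fold). The other 3 such models with these minimum levels overlapped with controls and included the most abundant, Tyms-205 at 33.8, 36.2 and 24.1 TPM against 28.0, 27.7 and 35.3 (1.04-fold), Rrm1-202 at 25.3, 19.2 and 16.1 against 23.1, 18.5 and 24.8 (0.914-fold) and Rfc2-203 at 7.0, 5.68 and 7.84 against 5.49, 4.87 and 7.04 (1.18-fold). Tyms-207 was also above every control in Hbs1l-/- RNA, at 13.2 to 17.9 TPM, overlapping its range in libraries labelled Upf2-/-. Orc6-204 and Tyms-204 overlapped with controls in Hbs1l-/- RNA. Models annotated as targets of nonsense-mediated decay took 5.38% to 6.12% of the members' TPM in Hbs1l-/- RNA. They took 5.69% to 6.48% in libraries labelled Upf2-/- and 4.65% to 5.84% in controls, and these ranges all overlap. Models annotated as processed transcripts took 3.74% to 4.49% against 2.42% to 3.62%, those with a retained intron 9.57% to 11.4% against 8.38% to 9.52%, and protein-coding models 78.5% to 80.6% against 81.0% to 84.2%, all without overlap and none tested. Estimates for isoforms that share exons depend on how the reads were divided among them.

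**Figure D5:**
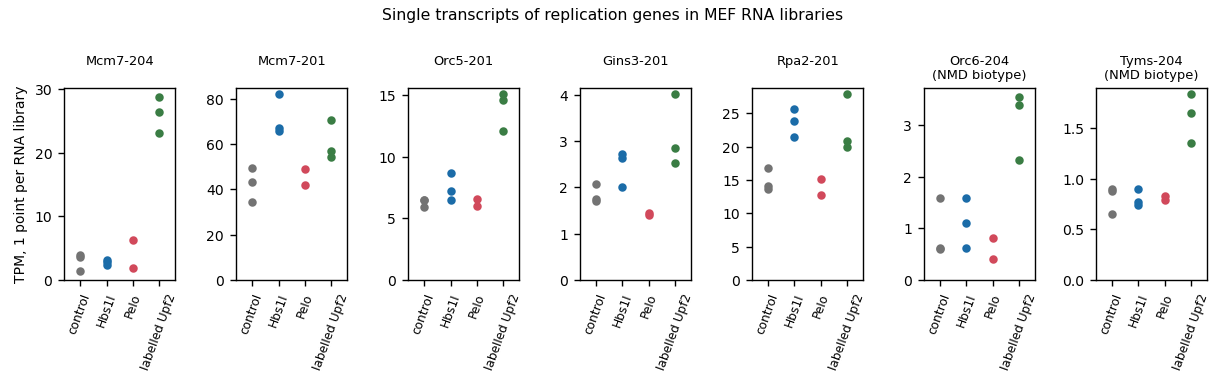
TPM of 7 single transcripts in every MEF RNA library, with 1 point a library, grouped as control, Hbs1l-/-, Pelo-/- and labelled Upf2-/-, each axis starting at 0 and NMD marking models annotated as targets of nonsense-mediated decay. Mcm7-204 lies between 23.0 and 28.7 TPM in the libraries labelled Upf2-/- and at most at 6.33 in any other library.

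Other genes of the same pathway were followed by 4 lists, to be read against the shares of all genes called in MEF footprints, 17.4%, 22.9% and 22.3% higher and 16.7%, 21.2% and 21.1% lower in Hbs1l-/-, Pelo-/- and labelled Upf2-/- MEFs. Of 11 genes of origin firing and licensing control, 8, 8 and 6 rose in footprints of these mutants and none fell, among them Cdc7, the kinase that fires origins, by 0.69, 0.53 and 0.72. Of 23 fork accessory genes 16, 15 and 17 rose and none fell, with medians of 0.55, 0.61 and 0.51, among them the fork protection factor Timeless, by 1.05, 1.00 and 1.33. Of 16 other nucleotide enzymes 9, 9 and 8 rose and 1, 1 and 4 fell, the last of these near the share of all genes called lower. Shmt1, which feeds dTMP synthesis with one-carbon units, rose by 0.95, 0.87 and 0.84, and Rrm2b, the ribonucleotide reductase subunit induced by p53, fell by 0.56, 0.65 and 1.09 on the log2 scale.

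The list of E2F and cyclin control of S-phase entry had 9, 9 and 8 of its 31 genes higher and 7, 11 and 10 lower in MEF footprints. Its medians were -0.06, -0.05 and 0.01, and calls in both directions were common among all genes too, at the shares just given. The largest falls of the list in each mutant were those of Cdkn2a and Cdkn2b, inhibitors of cyclin-dependent kinases. Cdkn2a fell by 1.70, 2.64 and 2.31 on the log2 scale (adjusted p = 1.46e-06, 1.7e-06 and 9.72e-07), and Cdkn2b by 1.32, 1.77 and 0.88. Cdkn1a, another inhibitor, fell by 0.45, 0.52 and 0.46 on the log2 scale, and a further one, Cdkn2c, rose in RNA of Hbs1l-/- MEFs (1.24) and of libraries labelled Upf2-/- (0.62). Cyclin A2 (Ccna2), which drives S phase, rose by 0.83, 0.72 and 0.75. Among the E2F factors E2f8 rose by 0.71, 0.91 and 0.47, E2f7 rose by 0.31 in Hbs1l-/- MEFs and 0.28 in libraries labelled Upf2-/-, and E2f2 rose by 1.61 in Pelo-/- MEFs (adjusted p = 0.0135), whereas E2f1 fell by 0.51, 0.52 and 0.74 on the log2 scale.

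In RNA the lists did not repeat their footprint counts in Pelo-/- or labelled Upf2-/- MEFs. In Hbs1l-/- RNA 6 of the origin firing genes rose and 0 fell, 11 and 0 of the fork accessory genes, 9 and 1 of the other nucleotide enzymes, and 10 and 5 of the E2F and cyclin list (12.7% and 10.4% of all genes). In Pelo-/- RNA 1 origin firing gene rose and 3 fell, and the fork accessory genes, of which 15 rose in Pelo-/- footprints, had 0 higher and 8 lower, Rnaseh2b and Top1 with the largest falls. The other nucleotide enzymes had 2 higher and 4 lower there, and the E2F and cyclin list 6 and 5 (15.5% and 16.6% of all genes). In RNA of libraries labelled Upf2-/- the counts were 0 and 1, 3 and 1, 1 and 2, and 1 and 2, in the same order of lists (13.2% and 6.76% of all genes).

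Markers of division and of cell type moved with the members in MEFs. All 15 mitosis markers rose in footprints of each mutant, summing to 2290 to 2510, 2200 to 2410 and 2000 to 2340 CPM against 1280 to 1590 in controls. In RNA 10 of them rose in Hbs1l-/- MEFs (1090 to 1160 CPM against 676 to 821), 5 fell in Pelo-/- MEFs (651 to 671), and none was called in libraries labelled Upf2-/- (544 to 776). Fibroblast markers summed to 18000 to 18700 CPM in control footprints and 21100 to 25100, 23500 to 29000 and 24600 to 26300 in the mutants, with 8, 7 and 7 of 8 called higher and Thy1 called lower in libraries labelled Upf2-/-. The 5 endothelial markers summed to 69.2 to 85.9 CPM in controls and 38.5 to 43.6, 25.2 to 32.6 and 53.2 to 60.7 in the mutants, with 2, 2 and 1 called lower and 0, 1 and 1 higher. The 5 macrophage markers summed to 94 to 127 CPM in controls and 163 to 217, 353 to 507 and 123 to 156 in the mutants, with 4, 5 and 3 called higher. Of the cardiomyocyte markers 6 were tested in each mutant, and 2, 3 and 1 were called lower and 0 higher. Their median log2 changes were -1.22, -1.12 and 0.4. Of the glial markers 3, 5 and 3 were tested, and 1, 3 and 1 were called higher and 0 lower. Their medians were -0.69, 1.37 and -0.12, so that the calls do not stand for the whole lists. In Hbs1l-/- RNA 6 fibroblast markers rose (5860 to 9800 CPM against 3840 to 5960). There 3 macrophage markers rose (126 to 167 against 70.5 to 96.4) and 2 endothelial markers fell (15.9 to 18.5 against 28.7 to 36.9). In Pelo-/- RNA 1 marker of each of these lists rose. In RNA labelled Upf2-/- 1 endothelial marker fell. The part of these differences in the members' values was not tested.

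Members were split by whether the promoter window defined above holds an E2F-type motif (n = 15) or does not (n = 25). The median log2 change in footprints was 0.72 and 0.49 in Hbs1l-/- MEFs, 0.72 and 0.52 in Pelo-/- MEFs, and 0.67 and 0.56 in libraries labelled Upf2-/-. In RNA the medians were 0.74 and 0.52 in Hbs1l-/- MEFs, -0.06 and -0.22 in Pelo-/- MEFs, and 0.00 and 0.13 in libraries labelled Upf2-/-. In the cerebellum they were 0.62 and 0.46. These are descriptions of the members and no test was run on them.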

How the data were processed

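Footprints were measured in 30 libraries and RNA in 11. Per the labels and methods, the authors removed footprints on ribosomal and transfer RNA with Bowtie2 2.2.3, mapped the rest to mm10 with HISAT2 2.1.0, and deposited raw counts per gene of footprints on coding sequence made with featureCounts. For RNA the authors deposited kallisto 0.42.4 tables per transcript, with estimated counts and TPM on the Gencode M24 transcriptome. One Pelo RNA sample was left out by the authors as an outlier.

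Here a gene's RNA value was the rounded sum of its transcripts' estimated counts. Genes with histone prefixes were left out of footprints, as in the study. Each comparison was fitted with edgeR 4.0.16 (TMM factors, filterByExpr, quasi-likelihood test, no replicate block) on all genes passing the filter, in R 4.3.3, and a gene was called at a Benjamini-Hochberg adjusted p of at most 0.05. Groups came from the labels, and replicates were separate embryo pools, cerebella or cultures. CPM values use the library sizes of each fit. Densities per kb use the coding length of Gencode M21, and gene positions that annotation on mm10. Translational efficiency was the interaction of assay and genotype. Scripts were tested on simulated data. The members, the gene lists and the tests were chosen with earlier results of these data known.

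Up to 3 members with the largest rise and 3 with the largest fall were named per comparison, among those called with a mean of at least 5 CPM, and Pcna and Mcm2 throughout. Other members are named with their values to describe their role group. Alternatives were DESeq2 1.42.0, DESeq-type size factors, no low-count filter, a replicate block, limma 3.58.1 on log2(TPM + 1) for genes with a mean of at least 1 TPM, controls summed over batches, a direct contrast of mutants, and leaving out each library. Intervals were not given for single libraries. Precision is limited by 3 libraries a group, and by 2 for Pelo RNA.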

Additional observations from a re-analysis of the deposited data

Results flagged for a closer look

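For 10 results a test of the difference between effects passed the threshold (edgeR quasi-likelihood interaction with Benjamini-Hochberg adjustment). Between the effects in Pelo-/- MEFs and in libraries labelled Upf2-/-, footprints differed by log2 0.55 for Rpa3, -0.61 for Rpa2 and -0.67 for Orc5. Between the effects in libraries labelled Upf2-/- and in Hbs1l-/- MEFs they differed by 0.76 for Rpa2 and 0.65 for Orc5. Between the effects of Hbs1l loss in embryo and cerebellum they differed by -1.16 for Rrm2, -1.48 for Chaf1b, -1.93 for Tk1, -1.44 for Tyms and -1.34 for Gins2. The 3 MEF batches hold nearly identical control libraries, so that each of the 5 MEF differences counts the same 3 controls 2 times, as if they were independent, and Rpa2 and Orc5 in both comparisons rest in part on the same footprints. Compared directly, in fits that still held the controls summed over batches, these 5 kept their direction and were called. With the replicate number as a block, fewer members were called for labelled Upf2 against Hbs1l, as given below.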

How the results depend on the processing

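Counts of members called in MEF footprints, in Hbs1l-/- RNA and in control tissues stayed within 1.5 times under every alternative run. DESeq2 gave 3 members in embryos and 17 in cerebella (none by edgeR). It gave 10 in RNA labelled Upf2-/- (5 by edgeR), where 23.2% of all genes were called, a share near that of the members. It also gave 2 in Hbs1l-/- translational efficiency (none by edgeR) and 15 in the embryo and cerebellum difference (5 by edgeR). Without a low-count filter 4 were called in embryos. On log2(TPM + 1) with limma, 7 were called in Pelo-/- RNA (18 by edgeR) and 2 in RNA labelled Upf2-/-. These fits called 14.7% and 11.1% of all genes, the former a share near that of the members. Direct contrasts of mutants gave 1 member for Pelo against Hbs1l (none as an interaction), 7 for Pelo against labelled Upf2 (3) and 5 for labelled Upf2 against Hbs1l (2). In the comparisons of 2 groups same-numbered libraries did not pair: their deviations correlated between -0.237 and 0.239, and in none of these comparisons was every pair over 0.1. This was not checked for the interactions, in which same-numbered MEF control footprints are nearly identical. With the replicate number as a block the count was 2 in embryos, 0 in cerebella, 37, 40 and 39 in MEF footprints, 27, 12 and 5 in RNA, 2, 38 and 24 in efficiency, 1 for labelled Upf2 against Hbs1l and 8 for embryo against cerebellum. Leaving out 1 library gave 0 to 10 in embryos, 0 to 9 in cerebella, 34 to 40, 37 to 40 and 38 to 41 in MEF footprints, 24 to 27, 8 to 17 and 3 to 7 in RNA, 0 to 0, 35 to 43 and 13 to 28 in efficiency, 0 to 0, 1 to 4 and 1 to 2 in the differences of Pelo from Hbs1l, Pelo from labelled Upf2 and labelled Upf2 from Hbs1l, 1 to 15 in embryo against cerebellum, 47 to 47 and 43 to 45 in control tissues, and 23 to 43 and 17 to 32 in the RNA contrasts added after the data were seen. Fits that leave out a Pelo RNA library hold 1 of that group and assume that it varies like the others. Counts in this paragraph with no share of all genes beside them describe only how far the number of calls moved. They are not results about the members, since calls over all genes also moved between fits. The causes were not tested. Over named members, 994 of 1087 alternative values kept direction and side of the threshold, 89 lost the call, 4 gained one and 0 reversed. Embryo libraries held 2634480 to 7298812 counts, and 5 of the 6 were shallower than any other library.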

Other observations

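The RNA of the mutants was also compared directly, a contrast chosen after the data were seen that involves no control library. Pelo-/- RNA was lower than Hbs1l-/- RNA for 41 of the 47 members and higher for none (16.3% and 18.9% of 14878 genes, edgeR quasi-likelihood test), with a median log2 difference of -0.65 against -0.02 over all genes. Pola1 differed by -1.73 (adjusted p = 0.00282), Mcm2 by -0.32 (adjusted p = 0.0355) and Pcna by -0.58. The count fell to 23 without either Pelo library (14.7% and 12.0% of all genes called, with the spread taken from the Hbs1l-/- libraries alone) and was 31 with a replicate block (20.4%). RNA labelled Upf2-/- was lower than Hbs1l-/- RNA for 29 members and higher for 1, Orc5 (11.1% and 16.1% of 16223 genes), with a median of -0.50 against 0.02. Pole2 differed by -1.07 (adjusted p = 0.00193), Mcm5 by -0.99 (adjusted p = 0.00177) and Orc5 by 0.92 (adjusted p = 0.00148). The count was 17 without labelled Upf2 replicate 1, 18 without Hbs1l replicate 2, 19 without Hbs1l replicate 3 and 24 with a block, with 16.2% to 21.1% of all genes called.

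Across the 47 members, which share the same libraries, Pearson's r between log2 coding length and log2 change was 0.58 in Hbs1l-/-, 0.39 in Pelo-/- and 0.32 in labelled Upf2-/- footprints, and 0.20, 0.22 and -0.09 in RNA. With exonic length in place of coding length it was 0.21, 0.11 and 0.23 in footprints and 0.08, 0.19 and 0.22 in RNA, so that these descriptions turn on which length is used.

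Other single transcripts, chosen after their values were seen, also stood apart in the libraries labelled Upf2-/-. Tk1-207, annotated as a retained intron, was at 2.87, 4.35 and 3.78 TPM against 0.72, 1.24 and 0.92 in controls. Rpa3-201 was at 26, 24.6 and 16.8 TPM against 33.9, 32.7 and 37.1. It was also below every control in Pelo-/- RNA, at 19.7 and 22.9 TPM.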
